A study of Homo sapiens with 12 samples.

Results

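The genes of homologous recombination and of the Fanconi anaemia pathway were followed in xenograft tumours during and after treatment with palbociclib, a drug that blocks the kinases CDK4 and CDK6 at the entry into the cell cycle. The 37 members were taken by symbol, with GENCODE 29 pairing symbols and identifiers, from the 58243 human gene identifiers in the tumours' count files, and all 37 were found and had enough counts to be tested among 18628 human genes. The tumours were grown from MCFDCIS, a human breast cell line whose lesions resemble ductal carcinoma in situ, under the skin of athymic nude mice, which lack T cells. Every tumour had 2 weeks to establish. Of the 4 groups, each with 3 tumours, the palbociclib initial group was collected after 2 weeks of daily palbociclib at 50 mg per kg by oral gavage and the vehicle initial group after 2 weeks of vehicle. The palbociclib recovery and vehicle recovery groups had the same treatments followed by a recovery period, whose length, like the age of the mice, the labels do not state. All groups share the cell line and the host, so the values describe 1 line. The labels do not say that the tumours of a group came from different mice, and p-values measure only the spread between these tumours.

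Homologous recombination repairs a broken chromosome by copying the sister chromatid, which exists only after DNA has been replicated. Nucleases first resect the broken ends, the BRCA proteins then load the recombinase onto the single strands, and helicases and nucleases finally undo the joined molecules. The Fanconi anaemia pathway frees replication forks from crosslinked DNA: a core complex with the conjugating enzyme UBE2T attaches ubiquitin to FANCD2 and FANCI, and the lesion is passed on to nucleases and to recombination. Many of these genes, but not all, are transcribed mainly as cells enter S phase, under the E2F transcription factors that the retinoblastoma protein holds back until CDK4 and CDK6 act. On this background knowledge, but with earlier results of these data known, the members were placed in a periodic class of 19 genes and a steady class of 18 genes.

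Each tumour had between 8004903 and 15716211 counts on genes, 14.2% to 25.4% of them on mouse genes. All 8 epithelial markers of the line were present in each group, with sums of 6937 to 10980 CPM (human counts scaled to a common total per tumour, with TMM scaling), and the human copies of 12 host cell markers summed to 68.0 to 130.2 CPM. Among the latter ADIPOQ of adipocytes was at 0 in every tumour of 3 groups. Vehicle initial tumours 2 and 3 stood apart by mitochondrial genes, at 5.32% and 11.2% of human counts against 0.674% to 2.64% in the others. Vehicle recovery tumour 2 stood apart in the members themselves, as described below.

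At the end of treatment 15 of the 37 members were lower in palbociclib tumours than in vehicle tumours, none was higher, and 22 did not pass (edgeR's quasi-likelihood test, Benjamini-Hochberg adjusted p under 0.05 over all tested genes). In that direction 1.7% of all tested genes passed. The 15 were the nuclease gene EXO1, the recombination genes XRCC2, BARD1, BRCA1, BRCA2, RAD54L and RAD51AP1, the helicase gene BLM, the polymerase gene POLQ, and UBE2T, FANCI, FANCD2, FANCA, FANCE and FANCG of the crosslink pathway. Their mean levels in palbociclib tumours were between 30.4% and 62.1% of the vehicle mean, with a median of 45.8%. Among the 22 others the palbociclib mean lay between 50.8% and 113% of the vehicle mean, with a median of 87.7%. In bulk tumour RNA, fewer cells that express a gene and less RNA per cell cannot be told apart.

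The 2 classes are described by counts and medians, without a test. Because they were chosen with earlier results of these data known, their contrast is not independent evidence. In the periodic class 13 of 19 genes fell, and over the 19 the median log2 fold change, written log2 change from here on, was -1.12, and in the steady class 2 of 18 fell, with a median of -0.18. Over all 37 members the median log2 change was -0.69, against 0.00 over all tested genes. In 23 members each palbociclib tumour was below each vehicle tumour, as it was for 11.3% of all tested genes. The exceptions to the classes were FANCE and FANCG, steady by background knowledge and lower here, and RAD54B, GEN1, FANCB, BRIP1, RMI2 and EME1, periodic by background knowledge and not passing. By tumour, in the same values, the median of the periodic class stood at log2 ratios of -1.10, -0.69 and -1.58 to the vehicle initial mean in palbociclib tumours 1, 2 and 3, and that of the steady class at -0.18, -0.14 and -0.28.

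**Figure D1:**
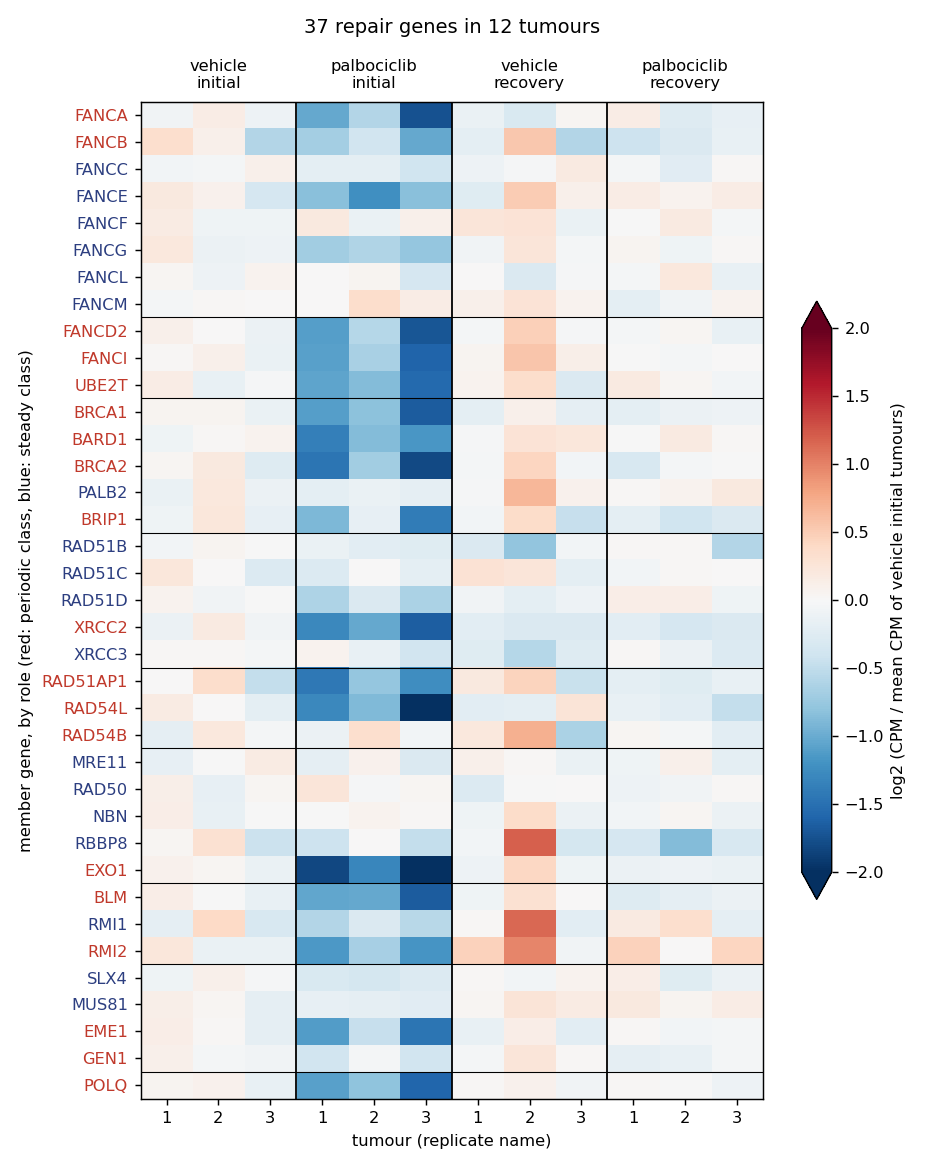
Log2 ratio of each tumour's CPM to the mean CPM of the 3 vehicle initial tumours, for the 37 members (rows, grouped by role with lines between roles) in 12 tumours (columns); red gene names are the periodic class and blue names the steady class, and blue cells are below the vehicle initial mean. The palbociclib initial columns are blue for most periodic genes and pale for most steady genes, and vehicle recovery tumour 2 is the reddest column.

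Which tumours were left out changed how many members passed. The count of lower members was 7 without palbociclib initial tumour 1, 8 without palbociclib initial tumour 3, 8 without vehicle initial tumour 1 and 8 without vehicle initial tumour 2, and it was 3 (EXO1, POLQ and BLM) without vehicle initial tumours 2 and 3 together. The lower calls over all tested genes, 317 with every tumour, were 151, 165, 245, 190 and 95 in the same 5 fits. EXO1, XRCC2, BARD1, POLQ, BLM, BRCA1 and UBE2T passed in all 12 fits that each left out 1 tumour. Fits that left out a recovery tumour kept both groups of this comparison whole, so they tested these calls less. How many of the 317 genes passed in all 12 fits was not counted.

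The conjugating enzyme of FANCD2 ubiquitination and both of its substrates fell. UBE2T, the conjugating enzyme, was at 24.5, 19.9 and 21.8 CPM in vehicle tumours and at 10.7, 12.05 and 7.51 CPM in palbociclib tumours, a log2 change of -1.14 ± 0.20 (SE, adjusted p = 0.0058 by edgeR). FANCI, one of the ubiquitinated partners, went from 56.2, 59.2 and 50.6 CPM to 26.2, 35.4 and 18.2 CPM, a log2 change of -1.06 ± 0.20 (SE, adjusted p = 0.0102 by edgeR). FANCD2, the other partner, went from 44.4, 41.7 and 38.01 CPM to 19.3, 27.8 and 12.6 CPM, a log2 change of -1.06 ± 0.23 (SE, adjusted p = 0.0265 by edgeR). For each of these genes the groups did not overlap, and palbociclib tumour 3 was the lowest.

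Of the 8 subunits of the core complex that serves them, 3 passed. FANCG, an adaptor subunit, stood at 29.5, 23.4 and 23.7 CPM in vehicle tumours and at 15.7, 16.9 and 14.9 CPM in palbociclib tumours, a log2 change of -0.69 ± 0.14 (SE, adjusted p = 0.0176 by edgeR). Of its neighbours in the complex, FANCA had a log2 change of -1.04 ± 0.22 and FANCE, which contacts FANCD2, one of -0.96 ± 0.22, and both passed. The other 5 subunits did not pass, and differences between subunits were not tested. FANCB among them had a log2 change like that of FANCG, with a larger SE. FANCF, a scaffold subunit, stood at 27.0, 22.6 and 22.9 CPM in vehicle tumours and at 27.5, 22.1 and 26.0 CPM in palbociclib tumours, so its groups overlapped and its log2 fold change was 0.06 ± 0.15 (SE). FANCL, the ubiquitin ligase subunit, had one of -0.08 ± 0.14, FANCC one of -0.26 ± 0.13, FANCB one of -0.69 ± 0.30 and FANCM, the DNA translocase that anchors the complex, one of 0.18 ± 0.12. FANCA shares 23.6% of its exon bases with ZNF276 on the opposite strand, FANCL shares 19.7% with 2 genes and FANCF 11.3% with GAS2, and since the strand setting of the counting is not given, these reads cannot be assigned with certainty.

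Among the BRCA mediators, BRCA1, BARD1 and BRCA2 fell while the gene for the protein that joins BRCA1 to BRCA2 did not pass. BARD1, the obligate partner of BRCA1 in a ubiquitin ligase, was at 31.1, 33.4 and 34.5 CPM in vehicle tumours and at 12.8, 18.1 and 14.7 CPM in palbociclib tumours, a log2 change of -1.12 ± 0.14 (SE, adjusted p = 0.000627 by edgeR). BRCA1, on GRCh38 chromosome 17 from 43044295 to 43170245, was at 46.6, 46.4 and 40.8 CPM and at 20.9, 25.3 and 14.1 CPM, a log2 change of -1.15 ± 0.17 (SE, adjusted p = 0.00209 by edgeR). The groups did not overlap for either gene, and the mean of BRCA1 in palbociclib tumours was 45.1% of its vehicle mean. BRCA2, which loads the recombinase, had a log2 change of -1.25 ± 0.24 (SE, adjusted p = 0.0171 by edgeR). PALB2, the linking protein, stood at 21.3, 26.9 and 21.4 CPM in vehicle tumours and at 20.2, 21.2 and 20.4 CPM in palbociclib tumours. Each palbociclib tumour was just below each vehicle tumour, and its log2 change of -0.17 ± 0.17 (SE) was no larger than its error. BRIP1, a helicase that binds BRCA1, had a log2 change of -0.73 ± 0.27 (SE, adjusted p = 0.331 by edgeR), with palbociclib tumours between 27.8 and 65.1 CPM.

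Of the 5 recombinase paralogues, which form small complexes that help the recombinase filament to form, only XRCC2 passed. XRCC2 stood at 19.4, 23.9 and 20.2 CPM in vehicle tumours and at 8.70, 10.4 and 6.74 CPM in palbociclib tumours, a log2 change of -1.30 ± 0.16 (SE, adjusted p = 0.00056 by edgeR). RAD51D, its direct partner in one such complex, had a log2 change of -0.50 ± 0.14 (SE, adjusted p = 0.128 by edgeR), with no overlap between the groups. RAD51C, which belongs to both complexes, was at 23.7, 20.4 and 16.9 CPM in vehicle tumours and at 16.9, 20.5 and 17.8 CPM in palbociclib tumours, with overlapping groups and a log2 change of -0.15 ± 0.16 (SE). RAD51B and XRCC3 had log2 changes of -0.19 ± 0.20 and -0.14 ± 0.15 (SE). XRCC3 shares 76.7% of its exon bases with KLC1 on the opposite strand, so its level is uncertain.

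Of the 3 filament partners, 2 passed. RAD54L, a motor protein that remodels the recombinase filament, stood at 8.47, 7.63 and 6.62 CPM in vehicle tumours and at 3.11, 4.12 and 1.73 CPM in palbociclib tumours, a log2 change of -1.35 ± 0.28 (SE, adjusted p = 0.0219 by edgeR). Its paralogue RAD54B stood at 4.58, 6.01 and 5.05 CPM and at 4.79, 6.59 and 5.004 CPM, with overlapping groups and a log2 change of 0.07 ± 0.29 (SE). The RAD54B counts were low, between 32 and 64 per tumour at this stage, and 59.1% of its exon bases are shared with FSBP on the same strand. RAD54L shares 25.1% with LRRC41 on the opposite strand. RAD51AP1, which stimulates strand pairing, fell by a log2 change of -1.14 ± 0.26 (SE, adjusted p = 0.0397 by edgeR).

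Of the 5 end resection genes, EXO1 alone passed. EXO1, the exonuclease of long-range resection, lies on GRCh38 chromosome 1 from 241847967 to 241895148 (ENSG00000174371). It stood at 33.6, 32.4 and 28.9 CPM in vehicle tumours and at 8.97, 12.8 and 7.12 CPM in palbociclib tumours, a log2 change of -1.72 ± 0.20 (SE, adjusted p = 0.000277 by edgeR), which was the largest fall of the 37 members. The complex that starts resection did not pass in any subunit. NBN, its signalling subunit, was at 177.1, 145.2 and 161.0 CPM in vehicle tumours and at 159.98, 169.6 and 163.7 CPM in palbociclib tumours, so the groups overlapped, and its log2 fold change was 0.03 ± 0.13 (SE). MRE11, the nuclease subunit, had a log2 change of -0.11 ± 0.13 and RAD50, the tethering subunit, one of 0.09 ± 0.14 (SE). RBBP8, whose product CtIP activates that nuclease, had one of -0.28 ± 0.36 (SE). RAD50 shares 79.7% of its exon bases with other genes, most of them on the same strand.

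In the last steps BLM and POLQ passed, and differences between members were not tested. BLM, the helicase that dissolves joined chromosomes, was at 24.2, 21.8 and 19.9 CPM in vehicle tumours and at 10.7, 10.8 and 6.93 CPM in palbociclib tumours, a log2 change of -1.22 ± 0.18 (SE, adjusted p = 0.00184 by edgeR). Its cofactor RMI2 had a log2 change of -0.99 ± 0.29 (SE, adjusted p = 0.136 by edgeR), with no overlap between the groups. RMI1, the other cofactor, was at 6.48, 9.64 and 5.84 CPM in vehicle tumours and at 4.88, 5.97 and 5.004 CPM in palbociclib tumours, with overlapping groups and a log2 change of -0.47 ± 0.33 (SE). None of the 4 structure-selective nuclease genes passed. EME1, the regulatory partner of MUS81, came nearest, at 10.2, 9.39 and 8.201 CPM and at 4.26, 6.69 and 3.37 CPM, with a log2 change of -0.97 ± 0.24 (SE, adjusted p = 0.0563 by edgeR). MUS81, the catalytic subunit, was at 33.8, 32.0 and 27.3 CPM and at 27.7, 27.3 and 26.7 CPM, with a log2 change of -0.19 ± 0.12 (SE). EME1 shares 16.4% of its exon bases with LRRC59 and MUS81 shares 14.1% with 2 genes, all on the opposite strand. SLX4, the scaffold of these nucleases, and GEN1, a resolvase that acts alone, had log2 changes of -0.31 ± 0.13 and -0.26 ± 0.12 (SE). POLQ, the polymerase of theta-mediated end joining, an error-prone route that competes for resected ends, was at 54.1, 55.2 and 47.0 CPM in vehicle tumours and at 24.6, 29.7 and 17.4 CPM in palbociclib tumours. Its groups did not overlap and its log2 fold change was -1.13 ± 0.16 (SE, adjusted p = 0.00123 by edgeR).

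**Figure D2:**
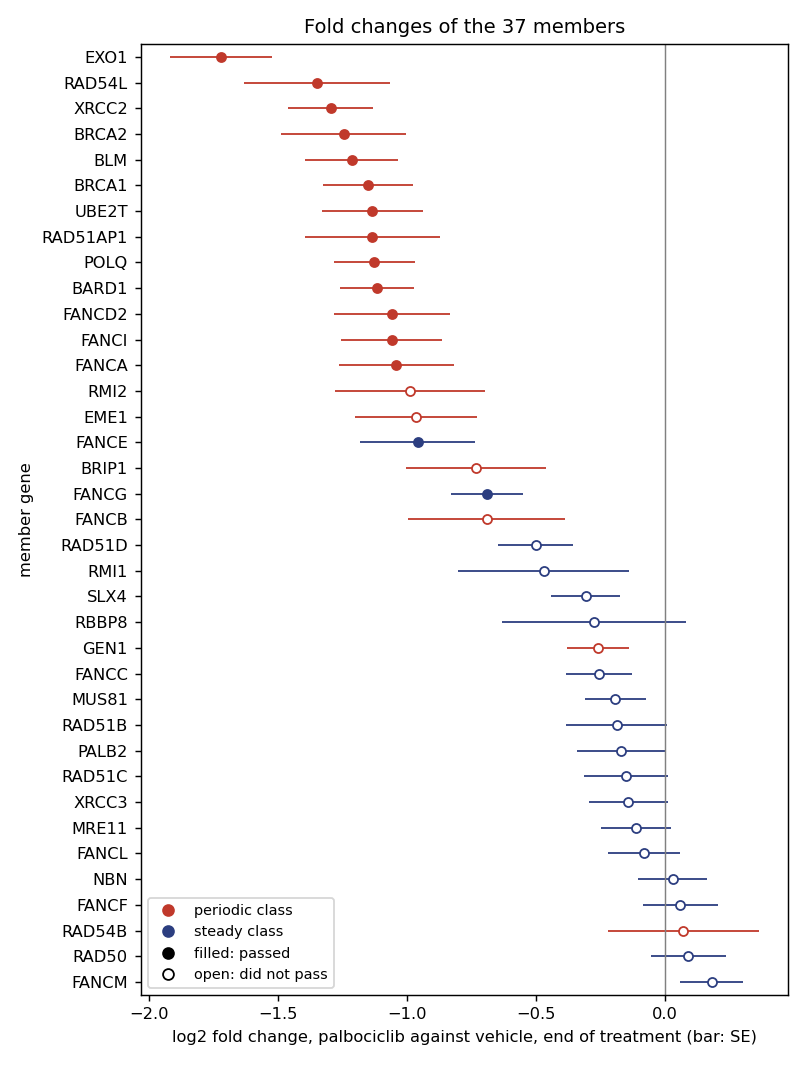
Log2 fold change of each member at the end of treatment, palbociclib relative to vehicle, with its SE as a bar (3 tumours a group); red is the periodic class, blue the steady class, and filled points passed. The 15 filled points run from EXO1 at -1.72 to FANCG at -0.69, and the steady genes gather near 0 except FANCE and FANCG.

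The 3 palbociclib tumours also differed among themselves. Of the 15 members that fell, 12 were lowest in tumour 3 and 14 were highest in tumour 2. Of the 22 that did not pass, 12 were lowest in tumour 3 and 15 were highest in tumour 2. The order over all tested genes was not counted. The proliferation marker MKI67 followed the same order, with log2 ratios to the vehicle initial mean of -2.54, -1.97 and -2.93 in palbociclib tumours 1, 2 and 3, and its log2 fold change was -2.42 ± 0.23 (SE, adjusted p = 9.1e-05 by edgeR). The fall of MKI67 was larger than that of any member. Mouse genes took 25.4% of gene counts in palbociclib tumour 3, against 16.95% and 17.6% in palbociclib tumours 1 and 2 and 15.5% to 17.4% in the vehicle initial tumours. With the mouse share as a covariate 6 of the 37 members were lower, and the lower calls over all 18628 tested genes went from 317 to 139. The median log2 change was then -0.44 over all members and -0.92 over the periodic class. The human copies of host markers summed to 79.5 to 130.2 CPM in palbociclib initial tumours and to 68.0 to 81.4 CPM in vehicle initial tumours. Endothelial PECAM1 made up most of that sum, at 88.2, 65.0 and 113.7 CPM against 58.7, 43.4 and 62.6 CPM, and of the 7 tested markers 4 had a negative and 3 a positive log2 change, with a median of -0.23. The part of the share of cycling cells and of the host share in the fall of the members was not tested.

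Compared per kilobase of exon, the members differed widely in level, and the most abundant were of the steady class. In vehicle initial tumours RBBP8 had 36.7 CPM per kilobase and NBN 26.2, followed by FANCL at 15.6 and UBE2T at 13.4. The lowest were RAD51D at 1.49 and RAD54B at 0.98 CPM per kilobase. After palbociclib UBE2T stood at 6.10 and EXO1 at 2.32 CPM per kilobase, down from 13.4 and 7.64, while NBN stood at 26.7.

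Because the falling members include many that are known as E2F targets, the promoters were read for E2F-type motifs. RefSeq promoter windows on GRCh38.p14, from 250 bases before to 50 bases after the transcription start, were found for 33 members, not for FANCI, NBN, RAD54B and RMI2. The letters TTCCCGC or TTCGCGC or TTGCCGC or TTGGCGC were searched on both strands. They were present in 21 of the 33 members (63.6%), in 15.3% of all 27305 genes with a promoter and in 23.8% of 11252 genes tested here. Of the members that fell 12 of 14 had a match (85.7%), and of those that did not pass 9 of 19 had one (47.4%). Bases before the start alone held a match in 6 of the 14 and in 5 of the 19. By class, 13 of 16 periodic members and 8 of 17 steady members had a match in the whole window. Members that fell and members that did not pass thus both held the motif, the former more often. Its part in the fall was not tested. UBE2T and BRCA2 fell without a match in the window. FANCF, XRCC3, GEN1, RMI1, RAD51D, FANCC, FANCL, BRIP1 and EME1 had a match and did not pass. Their log2 changes ran from -0.97 in EME1 to 0.06 in FANCF. Of the other motifs searched on both strands, TTTGAA or TTCGAA was present in 15.2% of the members and 19.5% of all genes, and CCAAT in 45.5% and 39.7%.

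Stretches of 30 bases around a match are given first for 6 members that fell and then for 4 that did not pass. They are written on the gene's own strand, with the match, or its reverse complement, in capitals.
EXO1, chr1:241848198-241848227, + strand: aaggtcagcctTTCGCGCgctgtgtaggca
XRCC2, chr7:152676102-152676131, - strand: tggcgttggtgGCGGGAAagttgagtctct
BARD1, chr2:214809661-214809690, - strand: ccgtcccagacGCGGGAAgagcttggccgg
POLQ, chr3:121545956-121545985, - strand: tttgaagactgGCGGGAAgatgtccgcagc
BLM, chr15:90717338-90717367, + strand: gcaagcttccgGCGGGAAgtgagccagggc
FANCD2, chr3:10026424-10026453, + strand: cgtcgggcctgGCGGGAAagtcgaaaacta
XRCC3, chr14:103715435-103715464, - strand: ggagcaggacgGCGGGAAgaggagtgcgga
FANCF, chr11:22625804-22625833, - strand: gaagtagggccTTCGCGCacctcatggaat
GEN1, chr2:17753860-17753889, + strand: agttgcggggtTTCGCGCcgccggagtctg
RMI1, chr9:83980774-83980803, + strand: cggcaaatcggGCGGGAAgaggtaaaaaag

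The letters GCGGGAA, the reverse complement of TTCCCGC, stand in 5 of the 6 falling members shown and in XRCC3 and RMI1 of those that did not pass, and TTCGCGC stands in EXO1, FANCF and GEN1. With the transcription start counted as base 1, the match began at base 6 in EXO1 and at base 2 in FANCF. In 18 of the 21 members with a match, 1 began between 60 bases before and 30 bases after the start, and in 11 members a match began in the transcribed part.

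**Figure D3:**
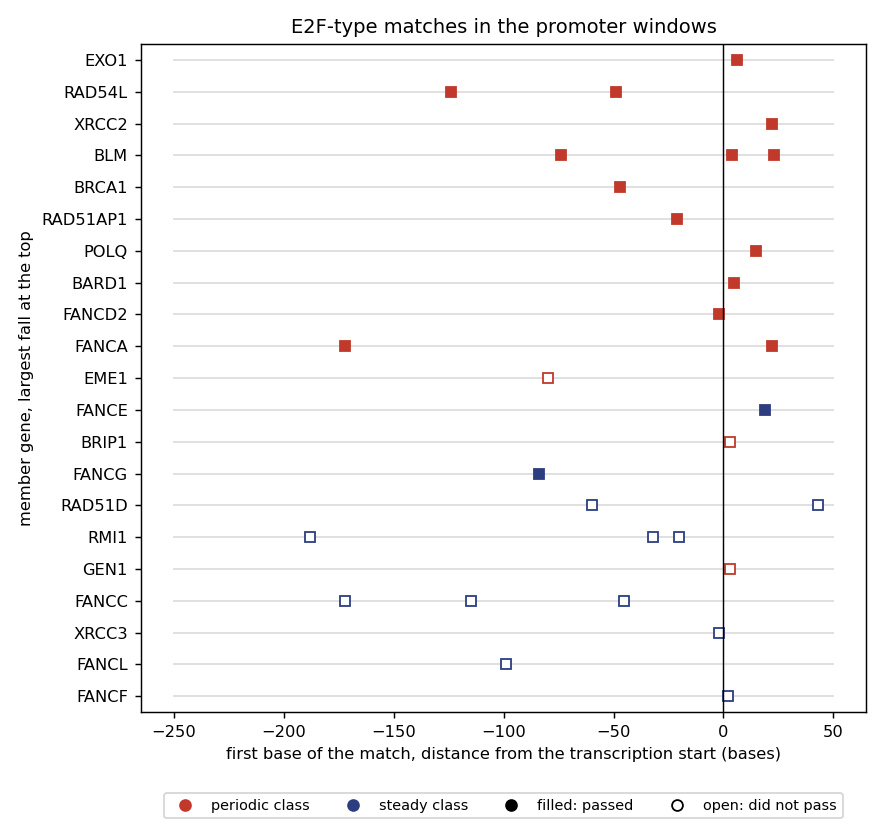
Position of the first base of each E2F-type match (x axis) in the 300-base windows of the 21 members that have one. Positions count the transcription start as the first base, bases before it are negative, and a line is drawn at 0. Members are ordered by log2 fold change at the end of treatment with the most negative at the top. Genes with several RefSeq starts show the matches of each. Filled squares (members that fell) and open squares (members that did not pass) both cluster around the start.

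After the recovery period no member passed between palbociclib and vehicle tumours. By edgeR's quasi-likelihood test 1 member (2.7%) had an unadjusted p under 0.05, as had 8.66% of all tested genes, and DESeq2 called 0 members. In either direction 0.00537% of all tested genes passed. The means of the 15 members that had fallen stood at 80.9% to 103% of the vehicle recovery means, with a median of 93.9%. EXO1 was at 29.5, 42.2 and 29.96 CPM in vehicle recovery tumours and at 29.1, 29.5 and 28.9 CPM in palbociclib recovery tumours, a log2 change of -0.22 ± 0.18 (SE). BRCA1 was at 38.9, 48.0 and 39.4 CPM and at 39.0, 41.2 and 41.6 CPM, a log2 change of -0.05 ± 0.17 (SE). Both genes overlapped between the groups, and vehicle recovery tumour 2 was the highest of the 6 tumours for each.

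The difference left at this stage was smaller without that tumour and larger without either of the other vehicle recovery tumours. The median log2 change of the 37 members was -0.10, of the periodic class -0.21 and of the steady class -0.07, and without vehicle recovery tumour 2 these were -0.01, -0.03 and 0.03. Without vehicle recovery tumour 1 they were -0.18, -0.28 and -0.08, and without vehicle recovery tumour 3 -0.17, -0.29 and -0.08. Tumour 2 was picked for its high values in the members, so a smaller difference without it is not a separate result. Each palbociclib tumour was below each vehicle tumour in 3 members, FANCI, FANCM and BLM, as it was for 5.51% of all tested genes. RBBP8 was the member with the unadjusted p under 0.05, at 180.3, 427.9 and 146.8 CPM in vehicle recovery tumours and at 147.9, 102.9 and 150.03 CPM in palbociclib recovery tumours, a log2 change of -0.91 ± 0.36 (SE, adjusted p = 0.573 by edgeR). Without vehicle recovery tumour 2 it was -0.29.

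**Figure D4:**
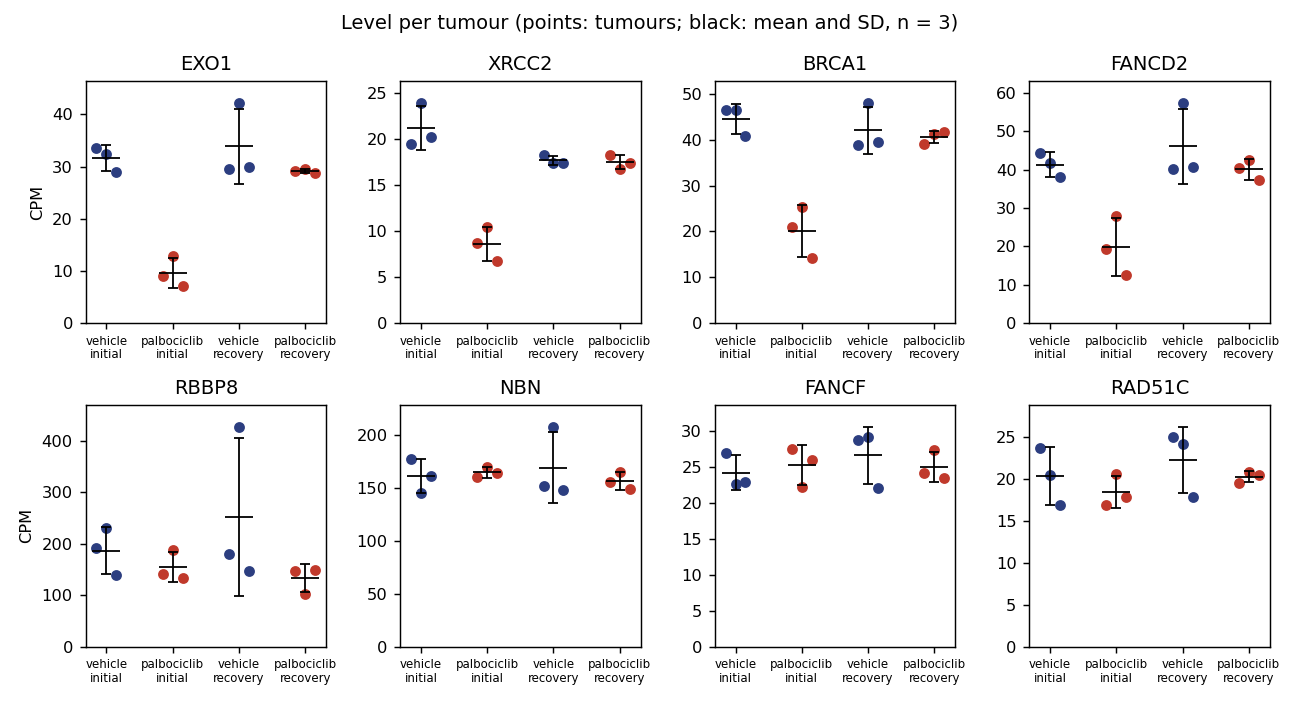
CPM per tumour (points; blue vehicle, red palbociclib) in the 4 groups with the mean and SD in black (n = 3), for 4 members that fell at the end of treatment (top row) and 4 that did not pass (bottom row); each y axis starts at 0. EXO1, XRCC2, BRCA1 and FANCD2 are low in palbociclib initial tumours alone, NBN, FANCF and RAD51C overlap across the groups, and RBBP8 has 1 vehicle recovery tumour at 427.9 CPM.

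Whether the effect of palbociclib differed between the stages was tested as a difference of the 2 log2 fold changes, recovery minus end of treatment. EXO1 and XRCC2 passed, both with a higher value after recovery, and 0.22% of all tested genes passed in that direction. For EXO1 the effects were -1.72 and -0.22 and their difference 1.504 ± 0.27 (SE, adjusted p = 0.0372 by edgeR). For XRCC2 the effects were -1.30 and -0.02 and their difference 1.28 ± 0.23 (SE, adjusted p = 0.0372 by edgeR). The other 35 members did not pass, among them BARD1 with a difference of 1.03 ± 0.20 (SE, adjusted p = 0.0576 by edgeR) and POLQ with 1.08 ± 0.22 (SE, adjusted p = 0.0719 by edgeR). Of all 37, 18 (48.6%) had an unadjusted p under 0.05, as had 5.22% of all tested genes. EXO1 and XRCC2 each passed in only 2 of the 12 fits that left out 1 tumour. The count of passing members was 6 without palbociclib initial tumour 2 and 7 without vehicle recovery tumour 2. It was 0 without any of the 10 others. The higher calls over all tested genes, 41 with every tumour, were 70 and 154 in those 2 fits. In the 10 other fits they were 12 to 22.

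**Figure D5:**
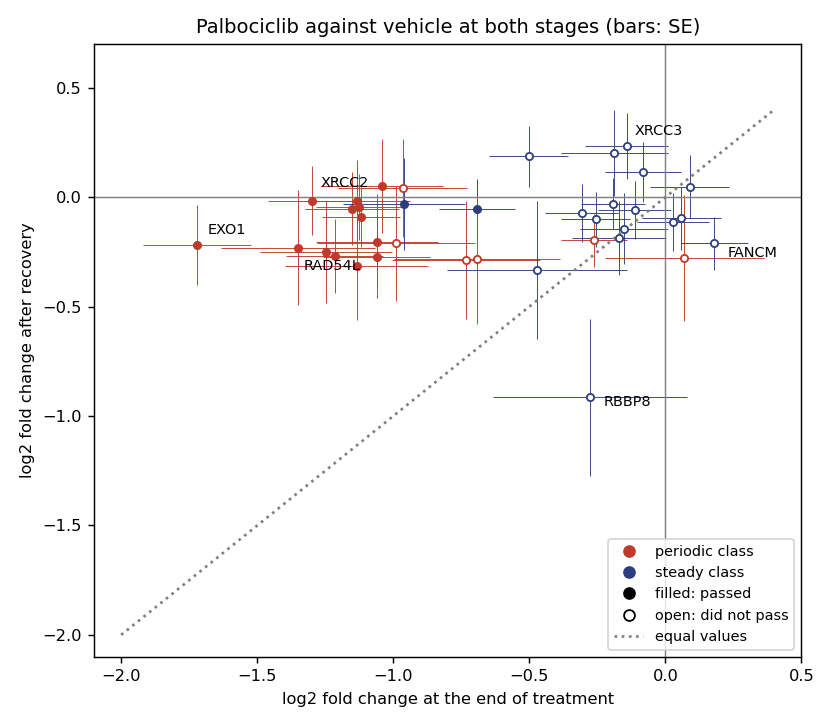
Log2 fold change of palbociclib against vehicle after recovery (y axis) against that at the end of treatment (x axis) for the 37 members, with SE bars; red is the periodic class, blue the steady class, and filled points passed at the end of treatment. The filled points lie between -1.72 and -0.69 on the x axis and near 0 on the y axis, far above the dotted line of equal values, and RBBP8 lies lowest at -0.91.

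Tumours sampled after the drug was withdrawn were also compared with tumours at the end of palbociclib treatment. This comparison shares the palbociclib initial tumours with the first one, so the values are given side by side and are not separate evidence. Of the 37 members 16 were higher after recovery, none was lower and 21 did not pass, and 2.36% of all tested genes passed in that direction. In 22 members each recovery tumour was above each initial tumour, as it was for 14.9% of all tested genes. The median log2 fold change was 0.57 over all members, 1.02 over the periodic class and 0.12 over the steady class, in which FANCG, FANCE and RAD51D passed.

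EXO1 was again at the top, with a log2 change of 1.60 ± 0.20 (SE, adjusted p = 0.000446 by edgeR), from 9.62 ± 2.88 CPM to 29.2 ± 0.35 CPM (SD, n = 3). BARD1 rose from 15.2 ± 2.70 to 34.6 ± 2.41 CPM (SD, n = 3) and UBE2T from 10.1 ± 2.33 to 23.0 ± 1.85 CPM (SD, n = 3). RMI2 and EME1, which had not passed at the end of treatment, passed here with log2 changes of 1.30 ± 0.28 and 0.94 ± 0.23 (SE), and RAD54L and RAD51AP1, which had, did not, with 1.07 ± 0.28 and 0.93 ± 0.26 (SE). The count of higher members was 7 without palbociclib initial tumour 1 and 8 without palbociclib initial tumour 3. It was 9, 10 and 8 without palbociclib recovery tumours 1, 2 and 3. The higher calls over all tested genes, 439 with every tumour, were 184, 212, 254, 245 and 278 in the same fits. The spread of the palbociclib recovery tumours differed between genes: EXO1 lay between 28.9 and 29.5 CPM, RMI2 between 5.93 and 8.11 CPM and FANCA between 25.6 and 33.8 CPM.

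Between the 2 vehicle groups no member passed by edgeR's quasi-likelihood test, 1 (2.7%) had an unadjusted p under 0.05, as had 14.4% of all tested genes, and DESeq2 called 0 members. The share of all tested genes that passed in either direction was 0%. The median log2 change of the members was 0.07. The member with the unadjusted p under 0.05 was XRCC3, named after its value was seen, with a log2 change of -0.35 ± 0.15 (SE). Of the 15 members that had fallen under palbociclib, XRCC2 alone had each vehicle recovery tumour below each vehicle initial tumour, as had 1495 of all 18628 tested genes. Its log2 change was -0.26 ± 0.16 (SE, adjusted p = 0.424 by edgeR).

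The wider repair network was measured in the same fit. Of 38 further genes of recombination and crosslink repair, 6 fell at the end of treatment, none rose and 32 did not pass, with a median log2 change of -0.09. The 6 are given with log2 fold change ± SE. HROB, which acts in repair synthesis, was at -1.31 ± 0.24 and MND1, a recombination cofactor, at -1.25 ± 0.26. PARPBP, a PARP1-binding protein, was at -0.99 ± 0.21 and DNA2, a resection nuclease, at -0.83 ± 0.16. USP1, which removes ubiquitin from FANCD2, was at -0.71 ± 0.14 and RFWD3, a ubiquitin ligase, at -0.65 ± 0.13. Of 16 genes of end joining and end protection 0 passed by edgeR's quasi-likelihood test or by DESeq2, with a median of -0.11. MAD2L2 and RIF1 of the end protection machinery, named after their values were seen, were the 2 of 16 with an unadjusted p under 0.05 by edgeR, at -0.44 ± 0.17 and -0.26 ± 0.11 (log2 change ± SE). Of all tested genes 9.87% had an unadjusted p under 0.05 in that comparison. From the end of palbociclib treatment to recovery, USP1, HROB and MND1 rose, by 0.61 ± 0.13, 1.39 ± 0.24 and 1.24 ± 0.25 on the log2 scale (SE). Of the 16 end joining and end protection genes 0 passed there by edgeR or DESeq2. MAD2L2 alone had an unadjusted p under 0.05 by edgeR, as had 14.4% of all tested genes.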

How the data were processed

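RNA was sequenced from 12 MCFDCIS xenograft tumours, 3 in each of 4 groups taken from the labels. The authors deposited 1 table of raw counts per tumour, with Ensembl identifiers of human and mouse genes. Per the submitters' processing notes the tools were STAR, cutadapt, CASAVA 1.8 and edgeR and the builds GRCh38 and GRCm38, with no role named. The counting program, its strand setting and the annotation are not given in the sources. In each file 4 rows name no gene. They held 37.0% to 69.1% of all counts and were left out, as were 713 repeated rows with identical counts.

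Human genes were paired with symbols and coordinates by GENCODE 29. They were tested in R 4.3.3 with edgeR 4.0.16: TMM scaling, filterByExpr defaults (minimum count 10, minimum total 15), 1 quasi-likelihood model with robust estimation over all 12 libraries, 5 comparisons, and Benjamini-Hochberg adjustment over 18628 genes. A gene passed at an adjusted p under 0.05. The biological coefficient of variation was 0.18. DESeq2 1.42.0, other scalings and filters, covariates and fits that left out libraries were alternatives. Shares of counts were compared by exact permutation tests, in which 3 tumours against 3 cannot go below a p of 0.1. No 2 tumours of a group agreed within counting noise (chi-square per degree of freedom 4.07 to 53.2).

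The members, the classes and the lists of other repair genes were chosen with earlier results of these data known. Values per tumour are given for the 8 members with the smallest p at the end of treatment and, in each role, for the members with the smallest and the largest p. RBBP8 after recovery was added after its values were seen. Simulated data were used to test these steps: with 18245 genes and the end-of-treatment comparison, 60 of 100 simulated 2-fold changes and 91 of 100 simulated 4-fold changes were found beside 10 false calls, and with 18256 genes and the difference between stages 34 and 87 of 100 beside 8.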

Additional observations from a re-analysis of the deposited data

Results flagged for a closer look

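The effect of palbociclib on EXO1, the long-range resection exonuclease, and on XRCC2, a recombinase paralogue, differed between the stages by a test of the difference itself. The log2 fold changes, first under treatment and then after recovery, were -1.72 and -0.22 for EXO1, a difference of 1.504, and -1.30 and -0.02 for XRCC2, a difference of 1.282. Both had an adjusted p of 0.0372 by edgeR's quasi-likelihood test, and all 3 palbociclib initial tumours were below all 3 vehicle initial tumours for both genes. In the 12 fits that each left out 1 tumour, the difference of EXO1 lay between 1.32 and 1.75 and that of XRCC2 between 1.12 and 1.43, and each passed in 2 of the 12.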

How the results depend on the processing

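In the alternatives run, no member that passed changed its direction in any of the 5 comparisons. Among members that did not pass, the sign changed under some alternative for 7 of 22 at the end of treatment and for 23 of 37 after recovery. No scaling alternative moved the median of all tested genes by more than 0.023. Over all 37 members, the count lower at the end of treatment was 15 in the model used, beside 317 lower calls over all tested genes. With the mouse share as a covariate it was 6, beside 139. With the share of the fourth row that names no gene as a covariate it was 11, beside 217. Leaving out 1 tumour gave 7 to 17, beside 151 to 579. After recovery 1 member, RBBP8, was lower with no filter on low counts, as were 582 of 38457 genes. For the difference between stages, the 2 members, beside 41 higher calls over all tested genes, became 1 with DESeq2 size factors, beside 30. They became 9 with no filter on low counts, beside 222 of 38457 genes. With 10 counts required in every library 4 passed, beside 55 of 13811 genes. With the mouse share as a covariate 4 passed, beside 57. With the share of the fourth row that names no gene as a covariate 0 passed, beside 16. With the DESeq2 test 6 passed, beside 99. Leaving out 1 tumour gave 0 to 7, beside 12 to 154. Without vehicle initial tumours 2 and 3 the difference was 1.585 for EXO1 and 1.156 for XRCC2. That fit kept only vehicle initial tumour 1 in its group, so these sizes do not show that the difference holds. The count higher in palbociclib tumours after recovery than at the end of treatment was 16, beside 439 over all tested genes. Leaving out 1 tumour gave 7 to 18, beside 184 to 979. Vehicle initial tumours 2 and 3 are not part of that comparison. Its median log2 change over the members was 0.57 without them, which cannot test it. The cause of these shifts was not tested, except that fewer tumours entered the fits that left some out. E2F-type matches in bases before the start alone were present in 33.3% of members, 20.4% of tested genes and 13.0% of all genes. No paired analysis was possible because the labels give no replicate number that the groups share. Counts were fewest for members such as RAD54L, with 18 to 40 in palbociclib initial tumours, and the effect of depth was not tested.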
